A study of Homo sapiens with 6 samples.

Results

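The comparison described here sets transfected and sorted gastric cancer cells against untreated cells of the same lines. It uses all 6 arrays of the series, 4 from transfected cells and 2 from parental cells. AGS is an established gastric adenocarcinoma line and HGC-27 an established line from an undifferentiated gastric carcinoma. Each line gave 1 array of parental cells with no genetic modification, 1 of cells transfected with a GFP plasmid and an empty vector (the GFP control), and 1 of cells transfected with the GFP plasmid and a plasmid for MIST1, a helix-loop-helix transcription factor of secretory cells. Transfection was by nucleofection, a form of electroporation, with 3 µg of empty vector or MIST1 plasmid and 1.5 µg of GFP plasmid. Both transfected populations were sorted on GFP fluorescence after 24 h and grown for another 24 h, and 5 µg of total RNA was labelled per array. No label says that parental cells were pulsed or sorted, so plasmid, electric pulse, sorting and regrowth cannot be told apart. The sources used here do not name the promoter of the plasmids.

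Plasmid DNA that reaches the cytosol is detected by the enzyme CGAS, which signals through STING1 to type I interferon. Interferon raises the transcription of antiviral genes through interferon-stimulated response elements in their promoters. Stress on cultured cells is also known to act on the cell cycle, through inhibitors of cyclin-dependent kinases such as CDKN1A, the p53 target p21, and on synthesis programmes driven by SREBP (lipids) and ATF4 (amino acids). These statements are background.

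In the core of many interferon-stimulated promoters lies a letter pattern of GAAA, any 2 bases and GAAA again, searched here on both strands of RefSeq windows running from 250 bases before to 50 bases after each annotated gene start (GRCh38.p14). Of 35 interferon-stimulated genes with a window, 24 (68.6%) held it, against 1195 of 27305 genes (4.38%) overall. It was present in 6 of the 9 such genes that rose in transfected cells, in all 3 that fell and in 12 of 19 that passed in neither direction, and the rest were not tested. A stretch of 4 of these promoters is shown because the probe sets used for genes with the same letters moved in opposite directions. The letters are given 5′ to 3′ along the gene, with every match in capitals, and 2 matches may overlap. BST2 lies on the minus strand at chr19:17405725-17405780, IFI27 on the plus strand at chr14:94110608-94110670, ISG15 on the plus strand at chr1:1013364-1013419 and TNFSF10 on the minus strand at chr3:172523588-172523637.
BST2: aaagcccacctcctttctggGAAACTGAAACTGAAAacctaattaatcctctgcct
IFI27: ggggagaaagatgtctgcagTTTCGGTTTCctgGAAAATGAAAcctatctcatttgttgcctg
ISG15: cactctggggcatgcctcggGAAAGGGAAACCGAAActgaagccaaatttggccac
TNFSF10: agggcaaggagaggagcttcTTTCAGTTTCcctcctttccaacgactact
The first 3 genes rose and TNFSF10 fell, as their values below show, TNFSF10 by 1 probe set.

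The deposited values are linear intensities, 1 per probe set, and the 6 array medians differed by at most 0.08 on the log2 scale. The ratio of the 3-prime to the 5-prime probe set was between 0.826 and 0.883 on every array for GAPDH and between 0.968 and 1.05 for ACTB. The 9 hybridization spike probe sets, whose RNA is added after labelling, had a mean of 972.8 and 869.7 on the AGS and HGC-27 parental arrays and of 1017 to 1122 on the transfected arrays. Part of the control probe sets for ribosomal RNA moved with the comparison, and these values stand beside the non-coding transcripts below. AGS expressed KRT18 (14741 to 16978) and EPCAM (5681 to 7098), while HGC-27 read at most 35.8 for KRT18 and 34.4 for EPCAM and expressed VIM (12532 to 13731). The BHLHA15 probe set, for the gene that encodes MIST1, read 66.3, 75.9 and 72.5 in AGS parental, GFP control and MIST1 cells and 41.1, 61.9 and 58.7 in HGC-27. It did not separate the MIST1 arrays from the GFP controls, and it checks no label because the labels do not say which transcript the plasmid carries.

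Transfected cells of both lines differed from parental cells in many genes. Of 13738 genes tested, 1535 rose (11.2%) and 832 fell (6.06%), 2367 in all (17.2%), at a Benjamini-Hochberg adjusted p under 0.05 in limma with cell line as a block. The genes that rose did so by a median of 1.51-fold and those that fell by a median of 1.46-fold. A stricter description asks for at least 1.5-fold over the parental array of the line in all 4 transfected arrays, with the brighter side above the median of all values. By that rule 241 genes were higher (1.75%) and 140 lower (1.02%). Of these, 241 and 138 also passed limma. Across the 13738 genes, the mean change in AGS and that in HGC-27 had a Pearson correlation of 0.41 (Spearman 0.41), and 62.4% of genes had the same sign in both lines. Genes are not independent replicates, and the lines share no array.

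Each group and line is 1 array, so the GFP control and MIST1 arrays of a line served as its 2 transfected arrays and the p-values measure only the spread among these 6 arrays. With both transfected arrays of a line averaged to 1 value, an alternative chosen after seeing the data, 500 genes passed, 328 higher and 172 lower, and of the 133 genes named here as risen or fallen 76 passed. Scaling moved the split of calls, to 1246 higher and 1088 lower with arrays scaled to their median and to 557 higher and 3211 lower with arrays scaled to the spikes, which moved the median log2 change of all genes from 0.06 to -0.17. Changes and list counts under the spike scaling are read against that shift and that split of 557 and 3211. List counts with averaged arrays are read against the 328 and 172 of all genes. Of the genes that rose, 182 were above the median of all values on transfected arrays only, and 43 of those that fell on parental arrays only. Such genes entered the test through the group where they are high, so their calls are not independent of the filter. Among the named genes they are TGM1, CYP26B1, LINC00473, TPSAB1, LINC01426 and BMF, which rose, and LINC01107, EVL, FAM223B, LGALS13, LINC02523, H2AC17 and H1-4, which fell, and their values are descriptions.

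**Figure D1:**
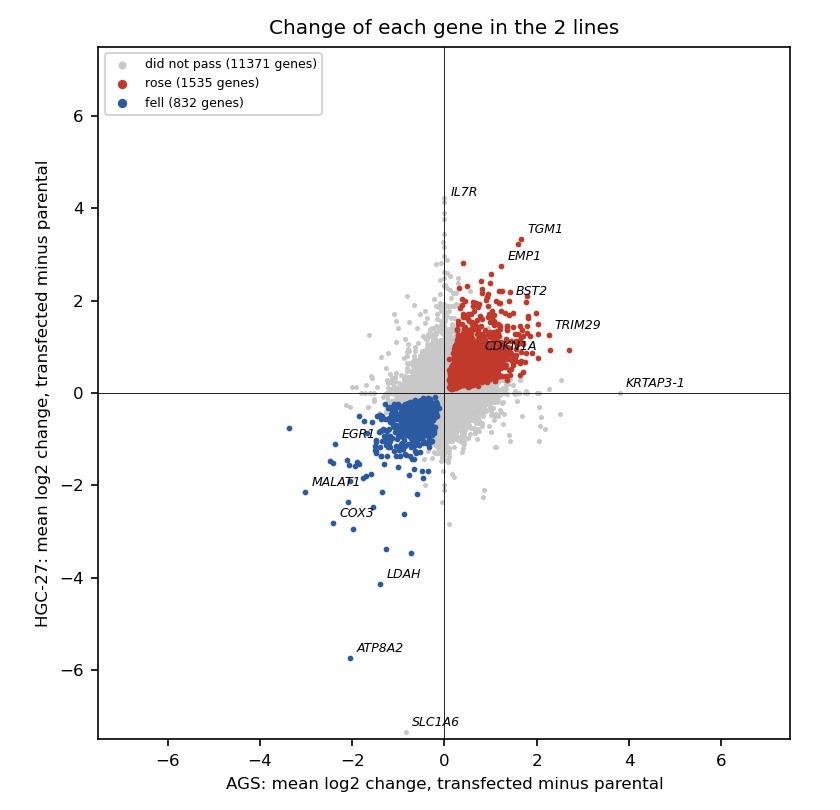
Each point is 1 of 13738 genes, with the mean log2 change of the 2 transfected arrays over the parental array in AGS on the x axis and in HGC-27 on the y axis. Genes that rose (1535, red) lie in the upper right and genes that fell (832, blue) in the lower left. ATP8A2 and LDAH fell further in HGC-27 than in AGS.

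BST2, CDKN1A and MALAT1 show the shared change in genes of 3 kinds. BST2 encodes tetherin, which holds budding virus at the cell surface. Its intensity was 199 in AGS parental cells, 590.5 for the GFP control and 465 with MIST1, and in HGC-27 it was 9.54, 78.2 and 63.2. All 4 transfected arrays were above the parental array of their line, and the HGC-27 parental value lay under the floor of 17.6 to which low values were raised. BST2 rose by 1.70 on the log2 scale (SE 0.19, 6 arrays, limma adjusted p = 0.00557), a value that the floor understates.

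CDKN1A, the inhibitor p21 that blocks cyclin-dependent kinases, read 3859 in AGS parental cells, 6357 for the GFP control and 6455 with MIST1. HGC-27 gave 159, 285 and 270. The level was far higher in AGS on every array, and the change of the mean was 0.73 (AGS) and 0.80 (HGC-27) on the log2 scale. CDKN1A rose 1.70-fold (log2 change 0.77, SE 0.08, limma adjusted p = 0.00456).

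MALAT1, an abundant nuclear long non-coding RNA, went the other way. It read 3685 in AGS parental cells, 390 for the GFP control and 529 with MIST1, and 1566, 324 and 382 in HGC-27. The parental arrays were the highest in both lines. The fall was 6.01-fold (log2 change -2.59, SE 0.21, limma adjusted p = 0.00345). MALAT1 has 12 probe sets on the array, of which 10 were lower in all 4 transfected arrays. The other 2 were not, and one of them went from 54.7 to 109 and 112 in HGC-27.

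**Figure D2:**
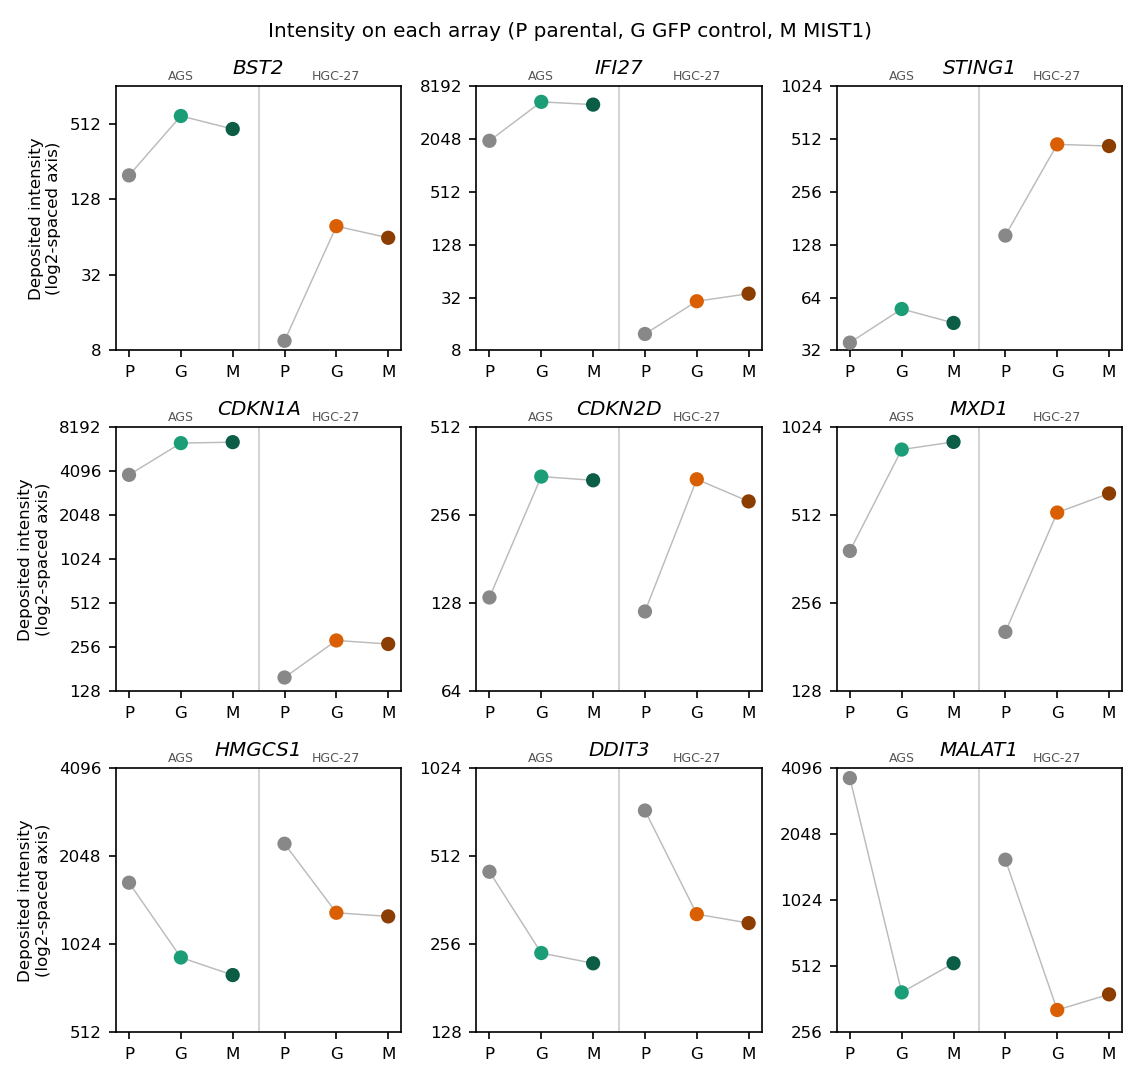
Deposited intensity (y axis, log2-spaced) of 9 genes on each array (x axis), with P for parental, G for GFP control and M for MIST1, AGS left and HGC-27 right in each panel. In all 9 panels both transfected points lie on the same side of the parental point in both lines, above it for BST2, IFI27, STING1, CDKN1A, CDKN2D and MXD1 and below it for HMGCS1, DDIT3 and MALAT1.

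The largest shared rises were in genes of different functions. TGM1, a transglutaminase that cross-links the envelope of keratinocytes, read 18.7 in AGS parental cells, 52.6 for the GFP control and 66.9 with MIST1, and 27.7, 279.5 and 279 in HGC-27. It was dim in both parental cultures and rose 5.66-fold (log2 change 2.50, SE 0.34). EMP1, an epithelial membrane protein, went from 535 to 1108 and 1426 in AGS and from 217 to 1415 and 1495 in HGC-27. It was bright on all arrays and rose 3.97-fold (adjusted p = 0.00881). GOLGA1, a golgin of the trans-Golgi, read 99.9, 293 and 421 in AGS cells and 193, 613 and 624 in HGC-27, and its 3.35-fold rise had an adjusted p of 0.00345.

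Other large rises came from genes that were nearly silent in parental cells of at least 1 line. CYP26B1, which degrades retinoic acid, rose 3.68-fold from 19.1 and 17.2 in the parental arrays to between 56.1 and 85.7 in the transfected ones. The long non-coding RNAs LINC00473 and LINC01426 rose 3.62-fold and 3.29-fold, from parental values all under the floor to between 50.6 and 86.1. ALPP, placental alkaline phosphatase, rose from 127 to 314 and 372 in AGS and from 2.27 to 70.7 and 91.7 in HGC-27. The mast cell tryptase gene TPSAB1 rose from 36.4 and 15.7 to between 77.7 and 90.6, by a probe set with possible cross-hybridization (its ID carries a suffix for this). All 5 genes were chosen by the 1.5-fold rule in all 4 transfected arrays, so their separation from the parental arrays was set by that choice.

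TRIM29, a tripartite motif protein, went from 204 to 975 and 974 in AGS and from 61.7 to 141 and 152 in HGC-27. CLIC3, an intracellular chloride channel protein, went from 885 to 1698 and 1845 in AGS and from 63.7 to 394 and 364 in HGC-27. Both rose, TRIM29 by 3.37-fold (adjusted p = 0.00635) and CLIC3 by 3.45-fold (adjusted p = 0.0123), the first more in AGS and the second more in HGC-27. The zinc finger gene ZNF114 rose 3.53-fold, FAM149B1 5.31-fold and KIAA0513 3.26-fold. KIAA0513 was higher with MIST1 (169.6 in AGS, 130 in HGC-27) than in the GFP control (83.6 and 70.2), which in turn was above the parental level (52.2 and 20.5).

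The largest shared falls were steep in HGC-27. ATP8A2, a phospholipid flippase, read 238 in AGS parental cells, 65.5 for the GFP control and 51.2 with MIST1. The HGC-27 values were 940 in parental cells and 7.09 and 6.45 after transfection, both under the floor. It fell by 3.89 on the log2 scale (SE 0.69, limma adjusted p = 0.0137), with -2.04 in AGS and -5.74 in HGC-27. EVL, an actin regulator of the Ena/VASP family, fell from 56.5 to 27.6 and 19.9 in AGS and from 230 to 22.7 and 21.7 in HGC-27.

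For some of the falls the other probe sets of the gene did not follow. LDAH, a hydrolase of lipid droplets, fell 6.81-fold by the brightest of its probe sets, from 721 to 291 and 258 in AGS and from 1367 to 82.5 and 72.8 in HGC-27. A second LDAH probe set went from 254 to 298 and 279.5 in AGS and from 91.5 to 211 and 176 in HGC-27, in the opposite direction. The kinase MINK1 fell 4.26-fold by 1 probe set, from 2783 to 266 and 241 in HGC-27, where another read 91.5, 96.0 and 107. ATP8B1, also a flippase, fell 3.52-fold by a probe set of the same kind of ID, while a second read 88.8, 84.9 and 100.2 in AGS. Among the large rises, 2 other bright probe sets of FAM149B1 did not follow, and the second probe set of GOLGA1 rose by at most 0.57 on the log2 scale in any transfected array.

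This holds beyond the named genes. Of the 241 genes higher by the 1.5-fold rule, 94 had other probe sets above the filter, 154 in all, and 78 of these (50.6%) were higher in all 4 transfected arrays, 28 of them past 1.5-fold. Of the 140 genes lower by the rule, 51 had 99 other probe sets, of which 41 (41.4%) were lower in all 4 and 13 past 1.5-fold. Another 14 and 20 of them moved the opposite way in all 4 arrays. A gene's value here is that of its brightest probe set. For 14 of the 133 named genes that probe set has an ID that marks possible cross-hybridization. These are TPSAB1, COX3, MINK1, ATP8B1, TNFSF10, CGAS, HLA-E, HLA-F, HLA-G, PERP, CDT1, SLC2A3, ITGB5 and DCN. Of the 133 named genes, 78 had another probe set above the filter. Every such probe set followed in all 4 arrays for 43 genes, some did for 13 and none did for 22, among them FASN, PKM, WNT5A, BMP2, ID2, LAMB1, GORASP1, GCC1, KCNQ1OT1, FTX, THY1 and DCN.

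The remaining large falls were in dim or non-coding transcripts and histone genes. LINC01107 fell 5.54-fold, FAM223B 4.69-fold, LINC02523 3.95-fold and LOC100190986 3.50-fold. LGALS13, which encodes a placental galectin, fell 4.05-fold from 51.8 and 114 to at most 23.9. The histone genes H2AC17 and H1-4 encode replication-dependent histones, whose transcripts mostly lack a poly(A) tail. H2AC17 went from 146 to 25.8 and 26.6 in AGS and from 109 to 42.6 and 36.3 in HGC-27, and H1-4 from 93.5 to 16.06 and 16.99 and from 103 to 32.4 and 40.8. Both fell, by 3.92-fold and 3.88-fold. They were chosen by the 1.5-fold rule in all 4 transfected arrays, which fixed their separation from the parental arrays. Of 12 measured histone genes, 1 rose (8.33%) and 2 fell (16.7%), against 11.2% and 6.06% of all genes.

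Some transcripts of the mitochondrial genome fell as well. Of 7 measured, 4 fell (57.1%, against 6.06% of all genes) and 0 rose, with a median log2 change of -0.26 against 0.06 over all genes tested. COX3, a cytochrome c oxidase subunit, read 376 in AGS parental cells, 70.0 for the GFP control and 71.2 with MIST1, and 456, 62.2 and 67.7 in HGC-27. It fell 6.12-fold (log2 change -2.61, SE 0.14, limma adjusted p = 0.00191), by a probe set with possible cross-hybridization. ND6, the subunit of complex I encoded on the light strand, went from 802 to 203 and 218 in AGS and from 540 to 175 and 185 in HGC-27, and fell 3.38-fold (adjusted p = 0.0029). The bright probe sets moved far less, with ND2 (13855 to 10845 and 11793 in AGS) and ATP6 both at a log2 change of -0.26 (adjusted p = 0.012 and 0.0237). A dim second probe set of ATP6 went from 256 to 78.5 and 106 in AGS and from 229 to 91.7 and 77.3 in HGC-27.

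The control probe sets for ribosomal RNA moved in the same direction in part. The probe set for the middle of 18S read 1142 in AGS parental cells against 48.2 and 46.8 after transfection, and 370.5 against 52.0 and 52.7 in HGC-27. The 5-prime probe set of 28S read 1253 against 427 and 425 in AGS and 873 against 455 and 410 in HGC-27. The middle probe set of 28S did not follow, at 2005 against 2173 and 1960 in AGS and 1514 against 2250 and 2080 in HGC-27. Their part in the falls of MALAT1, COX3 and the histone genes was not tested.

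**Figure D3:**
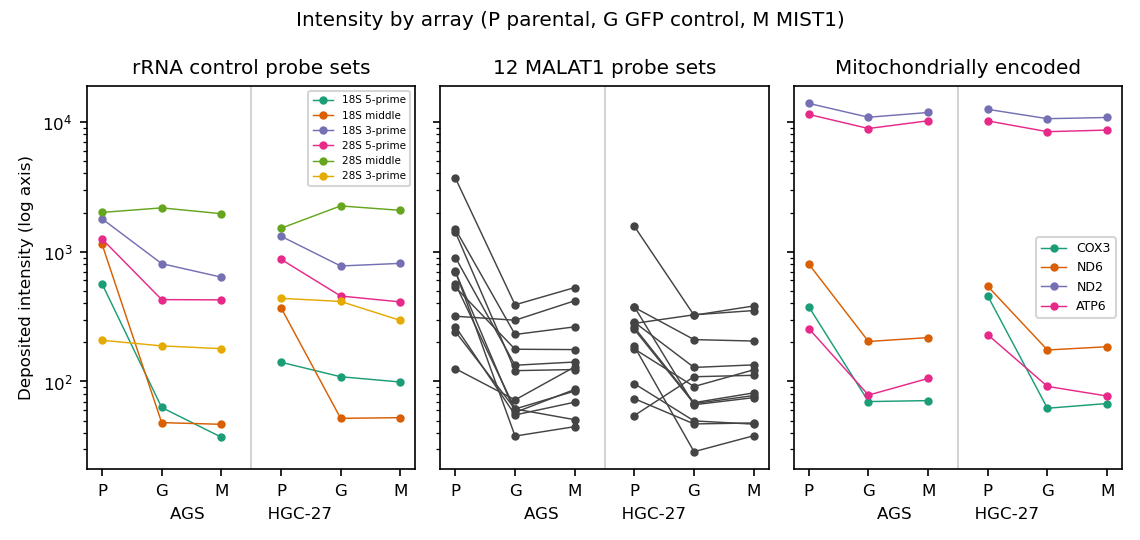
Deposited intensity (log axis) on each array (P parental, G GFP control, M MIST1, AGS left and HGC-27 right of the line) for 6 ribosomal RNA control probe sets, the 12 MALAT1 probe sets and the mitochondrially encoded COX3, ND6, ND2 and ATP6, with 2 probe sets for ATP6. The 18S middle probe set, 10 of the MALAT1 probe sets, COX3 and ND6 drop from the parental to both transfected arrays, while the 28S middle probe set is higher in both transfected arrays of HGC-27 and the bright ND2 and ATP6 probe sets are lower by a log2 change of -0.26.

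Other long non-coding RNAs of the list were split. Of 18 measured, 5 fell (27.8%) and 2 rose (11.1%), against 6.06% and 11.2% of all genes. Besides MALAT1 these included KCNQ1OT1, the antisense transcript of an imprinted locus, which fell 1.72-fold, FTX, which fell 1.56-fold, and OIP5-AS1, which fell 1.32-fold. Probe sets with no gene listed in the platform annotation were lower by the 1.5-fold rule in 171 of 3714 cases (4.60%), against 362 of 25948 (1.40%) of those with 1 gene. Higher values were about as frequent in both classes, at 1.78% and 1.63%.

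A group of interferon-stimulated genes rose. Of 40 measured, 12 rose (30%) and 3 fell (7.5%), against 11.2% and 6.06% of all genes. The median log2 change was 0.29 against 0.06. IFI27, a mitochondrial protein induced by type I interferon, was bright in AGS, at 1948 in parental cells, 5406 for the GFP control and 5029 with MIST1. In HGC-27 it stayed below the median of all values, at 12.3, 29.0 and 35.4. IFI27 rose 2.21-fold (log2 change 1.14, SE 0.16, limma adjusted p = 0.00768). The promoters of BST2 and IFI27 both hold the response element letters shown above.

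IRF9, the DNA-binding subunit of the interferon-activated complex, read 950.5, 1554 and 1658 in AGS cells and 190, 289 and 309 in HGC-27 and rose 1.63-fold (adjusted p = 0.00768). Its window does not hold the letters searched. TRIM22, an antiviral ubiquitin ligase, rose 2.18-fold, from 58.7 to 105 and 122 in AGS and from 41.2 to 109 and 95.4 in HGC-27. ISG15, a ubiquitin-like modifier, rose less, by 1.28-fold, from 5253 to 6859 and 6622 in AGS and from 241 to 323.5 and 295.5 in HGC-27 (adjusted p = 0.0244). For all 3 genes every transfected array was above the parental array of its line, as for 30.1% of all genes tested. The 3 genes were picked by adjusted p or with their values known, so this adds no support.

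TNFSF10, the death receptor ligand TRAIL, fell although its promoter holds the same letters. It read 817, 294 and 291 in AGS cells and 769, 299 and 345 in HGC-27, a 2.59-fold fall (log2 change -1.37, SE 0.11, limma adjusted p = 0.00345). This probe set has an ID of the kind that marks possible cross-hybridization. A second one was nearly level, at 67.1, 60.8 and 65.1 in AGS cells and 67.2, 62.2 and 60.1 in HGC-27. LGALS3BP, a secreted glycoprotein, fell 1.34-fold. PARP9, an ADP-ribosylation factor of the interferon response, fell 2.12-fold by the probe set used, but a second one rose in AGS from 581 to 831 and 772. With both transfected arrays of a line averaged, 5 interferon-stimulated genes rose and 2 fell, beside 328 and 172 of all 13738 genes. With scaling to the spikes 7 of the 40 rose and 4 fell, beside 557 and 3211 of all 13722 genes. The list median was then 0.06, against -0.17 for all genes.

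The sensors themselves did not move together. Of 20 measured nucleic acid sensors and adaptors, 3 rose (15%) and 2 fell (10%), against 11.2% and 6.06% of all genes. STING1, the adaptor downstream of CGAS, went from 144 to 476.5 and 466 in HGC-27 and from 35.4 to 55.1 and 45.9 in AGS, where it stayed near the median of all values. It rose 2.15-fold (adjusted p = 0.0274). A second probe set went from 150 to 493 and 477 in HGC-27 but from 24.5 to 15.2 and 18.02 in AGS, so the AGS part rests on 1 dim probe set. MYD88, the adaptor of Toll-like receptors, rose 1.52-fold, from 2006 to 2666 and 2600 in AGS and from 269 to 457 and 493 in HGC-27, and the RNA-editing enzyme ADAR rose 1.18-fold. With scaling to the spikes 2 genes of this list rose and 3 fell.

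By the probe set used CGAS went down, from 202 to 76.2 and 79.4 in AGS and from 149 to 61.7 and 54.4 in HGC-27. This was a 2.59-fold fall (limma adjusted p = 0.00408), by an ID of the kind that marks possible cross-hybridization. A second CGAS probe set read 306, 232 and 229.5 in AGS. In HGC-27 it read 5.51, 17.9 and 7.57, near or under the floor, so the fall there rests on the first probe set. The helicase DDX41, another DNA sensor, fell 1.26-fold. Of 17 HLA class I and antigen presentation genes, 5 rose (29.4%) and 3 fell (17.6%), against 11.2% and 6.06% of all genes. HLA-E, a ligand of natural killer cell receptors, rose 1.44-fold, and HLA-F, HLA-G, TAP2 and B2M also rose, B2M by 1.15-fold. The probe sets used for HLA-E, HLA-F and HLA-G have IDs that mark possible cross-hybridization, so these rises cannot be taken as separate. HLA-E was also higher in all 4 transfected arrays by a probe set without that mark. The peptide-trimming enzymes ERAP1 and ERAP2 fell, by 1.39-fold and 1.56-fold, by the probe sets used. None of 3 other ERAP2 probe sets followed in all 4 arrays, and one went from 292 to 403 and 346 in AGS, while one of ERAP1 went from 112 to 134 and 130. None of these 7 genes passed with 1 mean transfected value per line. With scaling to the spikes 1 gene of the HLA list rose, 3 fell and B2M stood at -0.03 on the log2 scale.

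Regulators of the cell cycle changed around CDKN1A. Of 20 CDK inhibitors, D cyclins and RB family genes, 5 rose (25%) and 2 fell (10%), against 11.2% and 6.06% of all genes. With scaling to the spikes 3 rose and 5 fell. CDKN2D, the INK4 family inhibitor p19, read 134, 347 and 337 in AGS cells and 120, 339 and 285 in HGC-27 and rose 2.57-fold (log2 change 1.36, SE 0.12, limma adjusted p = 0.00345). CDKN2B, the INK4 family inhibitor p15, read 478.5, 976 and 850 in AGS cells and 70.5, 345 and 255 in HGC-27 and rose 2.83-fold (adjusted p = 0.0123). In both genes the transfected arrays lay above the parental array of their line, as in 30.1% of all genes tested. Both were picked for a low adjusted p.

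MXD1, which competes with MYC for its partner MAX, rose 2.51-fold. It read 386, 857.5 and 911 in AGS cells and 204, 522.5 and 607 in HGC-27 (log2 change 1.33, SE 0.12, limma adjusted p = 0.00345). Its 2 other probe sets above the filter were also higher in all 4 transfected arrays. CCND3, cyclin D3, rose 1.42-fold. In the opposite direction, CDKN1B, the inhibitor p27, fell 1.41-fold, from 1922 to 1291 and 1210 in AGS and from 1474 to 1167 and 1111 in HGC-27, and RBL2, the RB relative p130, fell 1.47-fold. CCND3, CDKN1B and RBL2 did not pass with 1 mean transfected value per line.

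Of 29 measured p53 targets, 6 rose (20.7%) and 2 fell (6.9%), against 11.2% and 6.06% of all genes. CDKN1A was the only member past 1.5-fold in all 4 transfected arrays. TP53I3, an oxidoreductase, rose 1.55-fold, from 1028 to 1457 and 1500 in AGS and from 722 to 1236 and 1174 in HGC-27. The desmosomal protein gene PERP rose 1.29-fold. TRIAP1 and PMAIP1, which encodes the BH3-only protein NOXA, fell 1.22-fold and 1.27-fold. Scaling to the spikes left 2 of the 29 targets higher and 8 lower, beside 557 higher and 3211 lower of all 13722 genes.

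The mitotic genes that passed limma all fell. Of 30 measured, 7 fell (23.3%) and 0 rose, against 6.06% and 11.2% of all genes. The median log2 change was -0.21, against 0.06 over all genes tested. In all 4 transfected arrays 12 were lower (40%) and 3 higher (10%), where 18.8% and 30.1% of all genes were. PLK1, the mitotic kinase, read 1386, 989 and 1108 in AGS cells and 1736, 939 and 1004 in HGC-27 and fell 1.54-fold (adjusted p = 0.016). BUB1, a kinase of the spindle checkpoint, read 1837, 1206 and 1201 in AGS cells and 1103, 752 and 787 in HGC-27 and fell 1.48-fold (adjusted p = 0.00795). CCNB1, cyclin B1, fell 1.29-fold and HMMR, a spindle protein, 1.33-fold. With 1 mean transfected value per line no mitotic gene passed, in a fit where 172 of all 13738 genes fell. The list median was -0.03 in AGS.

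DNA replication genes went both ways, with 3 of 41 rising (7.32%) and 5 falling (12.2%), against 11.2% and 6.06% of all genes. None passed with 1 mean transfected value per line, where 500 of all 13738 genes did. With scaling to the spikes 0 rose and 20 fell, beside 557 and 3211 of all 13722 genes. The flap endonuclease FEN1 rose 1.25-fold, E2F1, the transcription factor of S phase genes, 1.50-fold, and the licensing factor CDC6 1.36-fold. CDT1, the partner of CDC6 in licensing, fell 1.30-fold, from 814 to 605 and 649 in AGS and from 1084 to 840 and 818 in HGC-27. RPA3 and POLE2 fell 1.23-fold and 1.32-fold.

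Many lipid synthesis genes fell. Of 23 measured cholesterol and fatty acid synthesis genes, 13 fell (56.5%) and 0 rose, against 6.06% and 11.2% of all genes, and 16 were lower and 2 higher in all 4 transfected arrays, where 18.8% and 30.1% of all genes were. The median log2 change of the list was -0.31. HMGCS1, the synthase that makes HMG-CoA for cholesterol, read 1662, 923 and 804 in AGS cells and 2258, 1312 and 1275 in HGC-27. It fell 1.84-fold (log2 change -0.88, SE 0.09, limma adjusted p = 0.00452), and no transfected array reached the parental level.

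On the fatty acid side, ELOVL6, an elongase, read 1157, 667 and 706.5 in AGS cells and 477, 290.3 and 275 in HGC-27 and fell 1.69-fold (adjusted p = 0.00647). ACACA, acetyl-CoA carboxylase, read 705, 427 and 359 in AGS cells and 1037, 605.5 and 548 in HGC-27 and fell 1.80-fold (adjusted p = 0.00685), although a second probe set did not follow. FASN, fatty acid synthase, fell 1.57-fold, and SCD, the stearoyl-CoA desaturase, 1.52-fold. INSIG1, which retains SREBP in the endoplasmic reticulum and is itself an SREBP target, read 1269, 854 and 865 in AGS cells and 1888, 1349 and 1183 in HGC-27 and fell 1.49-fold. With both transfected arrays of a line averaged, 4 genes of the list fell and 0 rose.

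**Figure D4:**
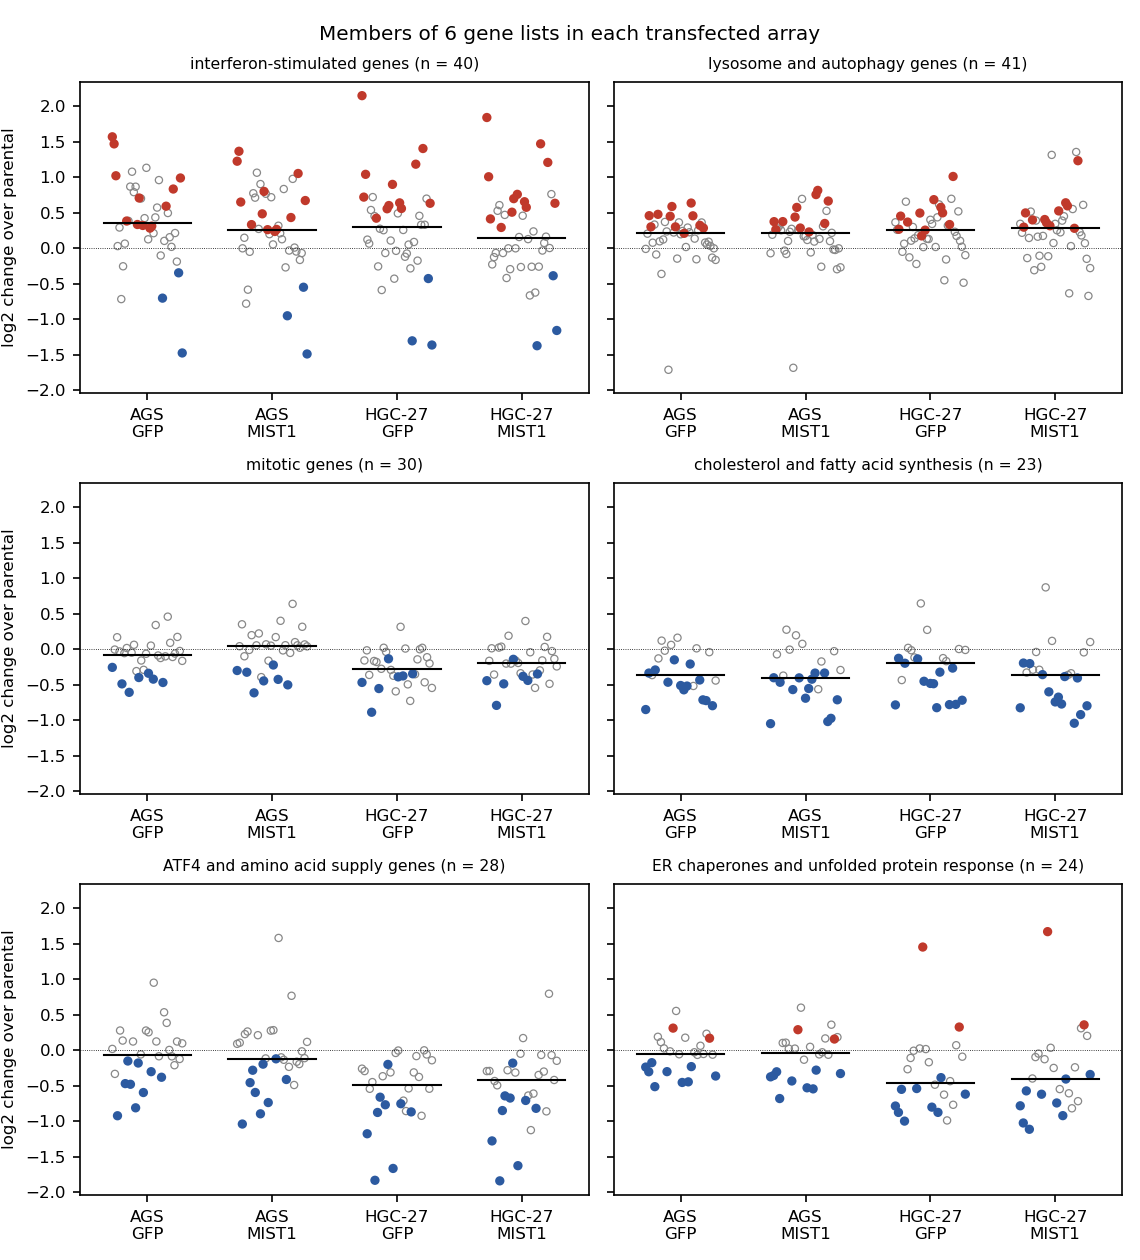
Log2 change over the parental array of the line (y axis) for each measured member of 6 gene lists in each of the 4 transfected arrays (x axis). Filled points are genes that rose (red) or fell (blue) in limma, open points are the others, and black bars are medians over the list. The cholesterol and fatty acid synthesis medians lie below 0 in all 4 arrays and the lysosome medians above 0 as deposited. With scaling to the spikes the lysosome list's median was -0.01, against -0.17 for all genes tested. The mitotic, ATF4 and endoplasmic reticulum medians are lower in HGC-27 than in AGS.

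Some genes of the ATF4 programme and of the unfolded protein response also fell. Of 28 measured ATF4 and amino acid supply genes, 9 fell (32.1%) and 0 rose, against 6.06% and 11.2% of all genes. The median log2 change was -0.20, against 0.06 over all genes tested. DDIT3, the stress transcription factor CHOP, read 453, 239 and 220.4 in AGS cells and 733, 324 and 302 in HGC-27. It fell 2.15-fold (log2 change -1.10, SE 0.11, limma adjusted p = 0.00452), in all 4 arrays by more than 1.5-fold.

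The serine synthesis enzymes PSAT1 and PSPH fell 1.51-fold and 1.72-fold. PSPH read 1170, 667 and 629.5 in AGS cells and 1666, 978.5 and 1045 in HGC-27. The cystine transporter SLC7A11 fell 2.23-fold, from 285 to 188.5 and 171 in AGS and from 1749 to 552 and 567 in HGC-27. CHAC1, which breaks down glutathione, fell 2.22-fold, and ASNS, asparagine synthetase, 1.45-fold. These last 3 genes changed more in HGC-27, with adjusted p values for the difference between lines of 0.0217, 0.00909 and 0.0268.

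Of 24 measured endoplasmic reticulum chaperones and unfolded protein response genes, 9 fell (37.5%) and 2 rose (8.33%), against 6.06% and 11.2% of all genes. PDIA4, a protein disulfide isomerase, read 2543, 1783 and 1588 in AGS cells and 2821, 1413 and 1304 in HGC-27 and fell 1.77-fold (adjusted p = 0.00773). SDF2L1, a lumenal chaperone component, fell 1.62-fold, DNAJC3 1.55-fold and XBP1, the transcription factor activated by splicing, 1.39-fold. HSPA5, the chaperone BiP, went from 10546 to 8952 and 8139 in AGS and from 10136 to 5882 and 5895 in HGC-27. It fell 1.46-fold.

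ERN1, the sensor kinase IRE1 that splices XBP1, was 1 of the 2 that rose, 1.91-fold, mostly in HGC-27 (92.0 to 252.5 and 293). Its other probe sets did not follow in both lines. The list medians of the ATF4 and chaperone genes were -0.11 and -0.04 in AGS. With 1 mean transfected value per line, 5 genes of each list fell, beside 172 of all 13738 genes.

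The lysosome genes that passed limma all rose. Of 41 measured lysosome and autophagy genes, 11 rose (26.8%) and 0 fell, against 11.2% and 6.06% of all genes. In all 4 transfected arrays 23 were higher (56.1%) and 1 lower (2.44%), where 30.1% and 18.8% of all genes were. The median log2 change was 0.22, with 0.20 in AGS. PSAP, the precursor of the saposins, read 3119, 4267 and 4234 in AGS cells and 2634, 3717 and 3490 in HGC-27 and rose 1.37-fold (log2 change 0.45, SE 0.05, limma adjusted p = 0.00635). TFE3, a transcription factor of lysosomal genes, read 1079, 1679 and 1824 in AGS cells and 737, 1100.0 and 1149 in HGC-27 and rose 1.57-fold (adjusted p = 0.00647). In both genes, which were picked for a low adjusted p, the transfected arrays stood clear of the parental arrays.

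Its relative MITF rose 1.51-fold, the autophagy kinase ULK1 1.74-fold, GABARAP, which is conjugated to autophagosome membranes, 1.25-fold and the protease CTSB 1.30-fold. These changes are small, and the counts moved with the scaling, as those of all genes did. With the arrays scaled to the spikes 1 lysosome gene rose and 3 fell, with a median of -0.01. Of all 13722 genes in that setting 557 rose and 3211 fell, with a median of -0.17. With 1 mean transfected value per line 2 lysosome genes rose, beside 328 of all 13738 genes.

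Some glucose uptake and glycolysis genes rose. Of 35 measured hypoxia and glycolysis genes, 8 rose (22.9%, against 11.2% of all genes) and 0 fell, with a median log2 change of 0.09, and 5 were lower in all 4 transfected arrays. SLC2A3, the glucose transporter GLUT3, read 4542, 8339 and 8767 in AGS cells and 163.5, 502 and 956 in HGC-27 and rose 2.82-fold (adjusted p = 0.0202). SLC2A1, the transporter GLUT1, read 5014, 7926 and 7967 in AGS cells and 765, 980.1 and 977 in HGC-27 and rose 1.42-fold (adjusted p = 0.0107). The glycolytic enzymes PFKP and PKM rose 1.45-fold and 1.28-fold. With 1 mean transfected value per line 5 of the list rose, and with scaling to the spikes 2 rose and 10 fell.

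Some signalling genes of the Wnt and TGF-beta families rose. Of 30 Wnt receptors, ligands and targets, 6 rose (20%, against 11.2% of all genes) and 0 fell, and the list's median log2 change of 0.06 was that of all genes tested. FZD7, a Wnt receptor, read 932.5, 1923 and 1899 in AGS cells and 550.1, 1296 and 1372 in HGC-27 and rose 2.23-fold (log2 change 1.16, SE 0.09, limma adjusted p = 0.0029). WNT5A, a non-canonical ligand, was dim in AGS (27.6, 63.3 and 58.4) and bright in HGC-27 (955, 1912 and 2144) and rose 2.16-fold (adjusted p = 0.00452). The targets LEF1 and NKD1 rose 1.57-fold and 1.37-fold. With scaling to the spikes 3 genes of the list rose and 3 fell.

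Of 26 TGF-beta and SMAD targets, 7 rose (26.9%) and 0 fell, against 11.2% and 6.06% of all genes. The median log2 change was 0.28 (0.06 in AGS), against 0.06 over all genes tested (0.002 in AGS). THBS1, the matrix protein thrombospondin 1, read 684, 1237 and 1339 in AGS cells and 50.6, 196 and 215 in HGC-27 and rose 2.76-fold (adjusted p = 0.00986). All 4 of its other probe sets above the filter were higher in all 4 transfected arrays. The ligands BMP7 and BMP2 rose 1.98-fold and 1.58-fold and the BMP target ID2 rose 1.21-fold. With scaling to the spikes 3 genes of this list rose and 2 fell, beside 557 and 3211 of all 13722 genes. The list median was then 0.05, against -0.17 for all genes.

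The shares of adhesion and epithelial genes that rose were near the 11.2% of all genes. Of 38 integrin, collagen and matrix genes, 6 rose (15.8%) and 1 fell. ITGA3, the laminin-binding integrin alpha 3, read 577, 991 and 1121 in AGS cells and 71.0, 117 and 130 in HGC-27 and rose 1.78-fold (adjusted p = 0.00773). ITGB5, ITGB1 and the protease inhibitor TIMP1 rose 1.52-fold, 1.17-fold and 1.56-fold, and the laminin chain LAMB1 fell 1.36-fold.

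Of 31 epithelial and junction genes, 4 rose (12.9%) and 1 fell. KRT80 read 698.5, 2136 and 2259 in AGS cells and 46.0, 82.3 and 87.7 in HGC-27 and rose 2.41-fold (adjusted p = 0.00768). CDH1, E-cadherin, was 221, 286 and 291 in AGS cells and 22.1, 89.8 and 75.4 in HGC-27 and rose 2.21-fold. GRHL2, a transcription factor that activates epithelial genes, fell 2.46-fold, from 561.5 to 294 and 266 in AGS and from 93.6 to 24.1 and 39.8 in HGC-27. With scaling to the spikes 3 epithelial genes rose and 5 fell.

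Among stress and death genes the changes were of both signs. Of 25 NRF2 antioxidant targets, 3 rose (12%) and 4 fell (16%), against 11.2% and 6.06% of all genes. HMOX1, heme oxygenase 1, read 2282, 4442 and 4398 in AGS cells and 282, 1040.0 and 1038 in HGC-27 and rose 2.67-fold (log2 change 1.42, SE 0.18, limma adjusted p = 0.00647). GPX2, a glutathione peroxidase of the gut, fell 2.03-fold and UGDH 1.46-fold. Of 28 apoptosis genes, 5 rose (17.9%) and 4 fell (14.3%), with the BH3-only gene BMF rising 2.62-fold from 50.4 and 23.6 to between 71.9 and 120. Of 26 NF-kB and inflammatory genes, 1 rose (3.85%) and 0 fell, and of 20 heat shock genes 1 rose (5%) and 2 fell (10%).

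Of 27 immediate early genes, 3 rose (11.1%) and 2 fell (7.41%), near the 11.2% and 6.06% of all genes. EGR1, the growth factor-induced zinc finger factor, was far lower after transfection in AGS, at 4685 in parental cells, 699 for the GFP control and 1175 with MIST1, and read 101, 43.7 and 50.6 in HGC-27. It fell 3.33-fold (log2 change -1.74, SE 0.30, limma adjusted p = 0.0135). FOS, its usual companion, fell 2.10-fold, from 1417 to 628 and 817 and from 339 to 186 and 123. FOSL2, a FOS relative, rose 1.92-fold.

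Of 19 golgins and Golgi stacking proteins, 4 rose (21.1%) and 1 fell (5.26%), against 11.2% and 6.06% of all genes. GORASP1 and GCC1 rose 1.62-fold and 1.43-fold beside GOLGA1. GOLIM4 fell 1.90-fold, from 789 to 333 and 314 in AGS and from 1338 to 899 and 907 in HGC-27. Of 51 cytosolic ribosomal protein genes 5 rose and 4 fell, of 48 nuclear-encoded respiratory chain genes 3 rose and 4 fell, and of 31 splicing regulators 3 rose and 3 fell, shares of 6.25% to 9.80% in each direction. These counts turned with the scaling, to 0 and 6, 3 and 9, and 2 and 8 after quantile normalization and to 0 and 40, 0 and 29, and 1 and 17 with scaling to the spikes. Of 34 ribosome biogenesis genes 1 rose (2.94%) and 3 fell (8.82%). Of 14 metallothionein and metal transport genes 1 rose and 1 fell (7.14% each). In the MYC, MAX and MXD list 2 of 11 rose (18.2%) and 0 fell.

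**Figure D5:**
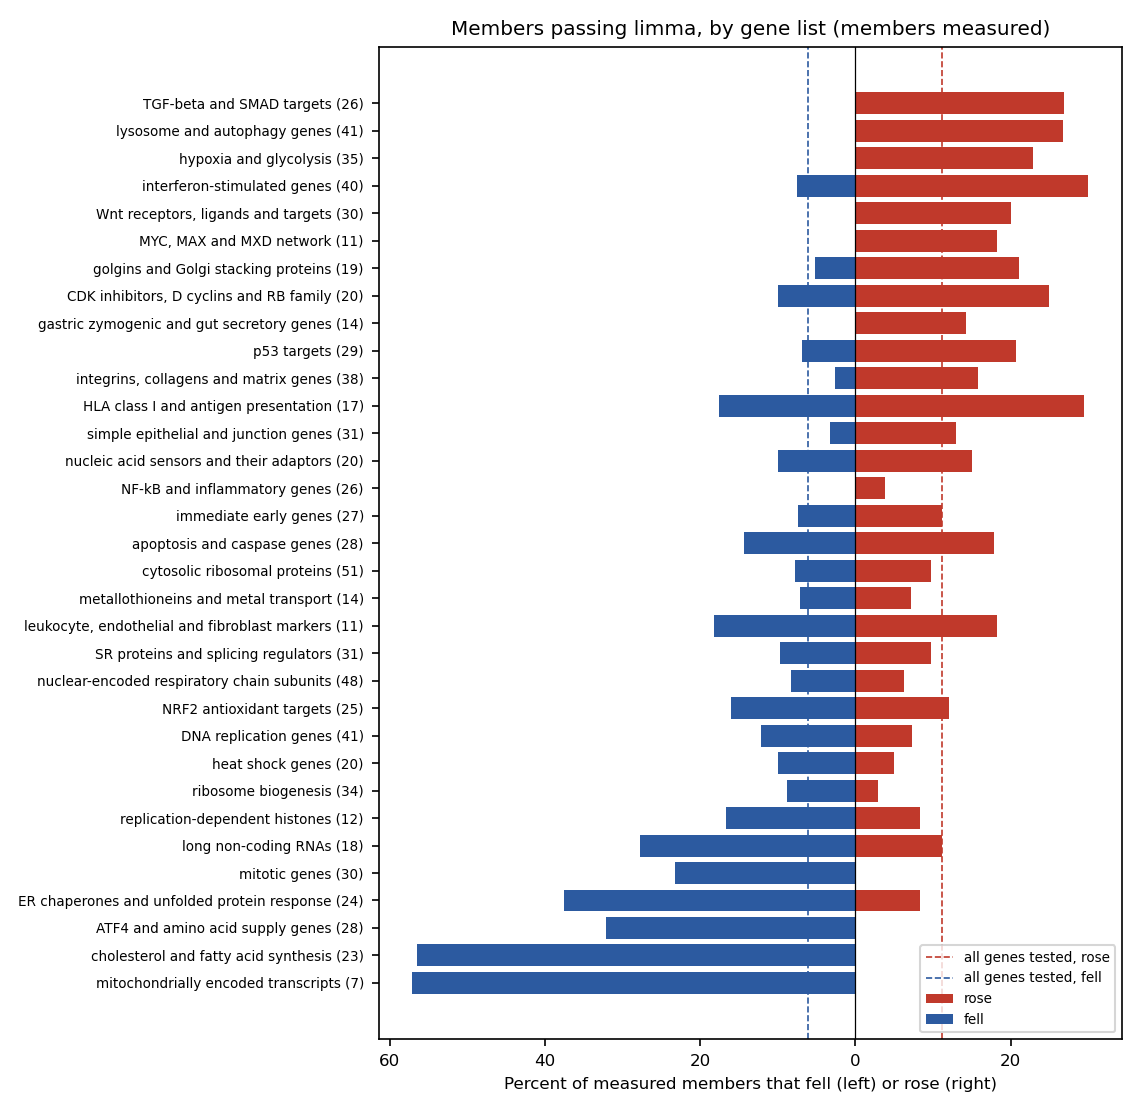
Percent of the measured members of each of 33 gene lists that rose (red, right) or fell (blue, left) in limma, with the number measured in brackets and dashed lines at the shares of all genes tested (11.2% and 6.06%). Cholesterol and fatty acid synthesis, with 56.5% falling, has the longest blue bar among lists of more than 7 genes, and interferon-stimulated genes, with 30% rising, the longest red bar.

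Gastric secretory genes were dim. Of 14 measured, 2 rose (14.3%, against 11.2% of all genes) and 0 fell. PGC, which encodes pepsinogen C, rose 1.77-fold and the mucin gene MUC6 1.53-fold, with no array above 114.2 for either. Markers of leukocytes, endothelium and fibroblasts were summed as well. Of 25 on the array, 5, 8 and 8 were above the median of all values in AGS parental, GFP control and MIST1 cells, and 11, 10 and 10 in HGC-27. Their summed intensity was 6663, 5002 and 4534 in AGS cells and 7279, 8513 and 7755 in HGC-27, where DCN (3244 to 4607) and LUM (1082 to 1337) took a large share. PTPRC, CD14, VWF, CDH5 and HBB read at most 52.4 on any array. PECAM1 read 80.9 to 100.9 on all arrays, MS4A1 at most 66.9, and CD3E went from 41.6 to 58.2 and 66.7 in AGS and from 45.2 to 57.9 and 62.8 in HGC-27. Of the 11 that passed the filter 2 rose (18.2%), THY1 (1.86-fold) and DCN (1.55-fold), and 2 fell (18.2%). Of all genes, 11.2% rose and 6.06% fell. The part of these markers in the other results was not tested.

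For part of the genes the change differed in size between the lines. Each line has 1 parental array, so the test of this difference has no spread of parental arrays, and its 2 residual degrees of freedom come from the GFP control against MIST1. The difference between the HGC-27 and the AGS change passed for 1400 genes (10.2%), with 1035 changes more positive in HGC-27 and 365 more negative, a split that became 518 and 502 after quantile normalization. SLC1A6, a glutamate transporter, showed the largest difference. It read 3087 in AGS parental cells, 1666 for the GFP control and 1791 with MIST1, and in HGC-27 it went from 7119 to 50.6 and 37.6 (difference -6.51 on the log2 scale, adjusted p = 0.00128). IL7R, the interleukin 7 receptor chain, read 84.4 in HGC-27 parental cells and 1346 and 1654 after transfection, and at most 16.8 in AGS.

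CXCL14, a chemokine, and SOST, a Wnt antagonist, were likewise high in 1 line after transfection. CXCL14 went from 12.6 to 394 and 279 in HGC-27 and SOST from 6.39 to 249.6 and 278, while neither exceeded 11.45 in AGS. The keratin-associated protein gene KRTAP3-1 went from 15.5 to 180.1 and 333 in AGS and read at most 10.5 in HGC-27. CXCL14, SOST and KRTAP3-1 were above the median of all values on transfected arrays of 1 line only. They entered the test through the group where they are high, so their calls are not independent of the filter. Their other line, all under the floor, adds no spread to the test. DKK1, a secreted Wnt inhibitor, rose in both lines but less in AGS (9009 to 11065 and 11438) than in HGC-27 (533 to 2421 and 2762), with a difference of 1.96 on the log2 scale (adjusted p = 0.0025). With an array of transfected cells left out, 1 residual degree of freedom remained and the count of genes that differed between lines was 0 in limma, with 2660 to 3803 genes at an unadjusted p under 0.05.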

How the data were processed

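RNA of 2 parental and 4 transfected and sorted samples was measured on 1-colour Affymetrix arrays with 54675 probe sets. The authors deposited 1 linear intensity per probe set and array. The series' design text names dChip, but the background correction and scaling of the deposited intensity values are not given in the sources used here. Platform annotation named 1 gene for 41091 probe sets (symbols of 41043 updated through gene IDs), several for 1801 and none for 11721, and 62 are array controls.

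Values were raised to a floor at the 25th percentile (17.6), taken to log2 and not rescaled. Probe sets with at least 2 of 6 arrays above the median of all values (50.53) were kept, and the one with the highest mean stood for its gene. The floor makes folds of dim genes too small. A linear model in limma 3.58.1 (R 4.3.3; lmFit and trended eBayes) took cell line plus transfected, with 3 residual degrees of freedom, and a second fit added their interaction, with 2. p-values are two-sided, with Benjamini-Hochberg adjustment over all 13738 genes. The code was tested on simulated data. The number of arrays limits the precision.

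The alternatives were another floor, filter, scaling, probe set rule, variance model or design, and leaving out each array. Genes, gene lists and tests were chosen with earlier results of these data known. Named genes are the 3 markers of the comparison, the 14 largest rises and falls passing both limma and the 1.5-fold rule, up to 4 members per list and direction with the lowest adjusted p, and the 5 largest differences between lines. From these, 1 gene of chromosome Y was left out. ISG15, TAP2, FASN, SCD, CHAC1, ASNS, HSPA5, ULK1, MITF, DKK1 and BHLHA15 are not covered by this rule and were picked once their values were known, and cell type markers have a list of their own. Promoter sequences are RefSeq's (GRCh38.p14).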

Additional observations from a re-analysis of the deposited data

Results flagged for a closer look

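The difference between the HGC-27 and the AGS change passed the interaction test for 1400 genes, and the values here are log2 changes in HGC-27 minus those in AGS for genes named above. The difference was positive for TGM1 (1.66), FAM149B1 (1.64), EMP1 (1.52), CLIC3 (1.57), STING1 (1.21), TAP2 (0.78), CDKN2B (1.15), ERN1 (1.26), HMOX1 (0.93), DKK1 (1.96), THBS1 (1.11), TIMP1 (0.62), CDH1 (1.51) and FOSL2 (1.12), which rose in both lines and further in HGC-27. ZNF114 (-1.78), TRIM29 (-1.01), PFKP (-0.36) and KRT80 (-0.77) rose further in AGS. Among genes that fell, ATP8A2 (-3.70), LDAH (-2.75), EVL (-2.10), MINK1 (-2.73), SLC7A11 (-0.98), CHAC1 (-1.37), ASNS (-0.65), HSPA5 (-0.48) and GPX2 (-1.32) fell further in HGC-27, and GOLIM4 (0.72) fell further in AGS. SLC1A6 (-6.51), IL7R (4.14), CXCL14 (4.23), SOST (3.90) and KRTAP3-1 (-3.80) had the largest differences and did not pass for a change shared by both lines. The values of AGS for CXCL14, SOST and IL7R and those of HGC-27 for KRTAP3-1 were all under the floor of 17.6 and have no order. Such values add no spread to the interaction test. CXCL14, SOST and KRTAP3-1 also passed the filter through transfected arrays only, so their differences are descriptions.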

How the results depend on the processing

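In place of 2367 genes, 544 passed with no filter, 1131 with the 3 conditions in the design, 915 for the GFP control and 848 for MIST1 against parental cells alone. With 2 settings added after the data were seen, 500 passed with 1 mean transfected value per line and 3768 with scaling to the spikes, which kept 1389 of the 2367 calls. Without the replicate block, which here is the cell line, 0 passed in limma and 1062 had an unadjusted p under 0.05. The pairing by cell line comes from the labels and is part of the other counts. Other floors, filters, scalings, probe set rules or variance models kept the count between 1707 and 2553. Leaving out 1 array gave 657 to 4039 genes: 4039 when the parental AGS cells and 3623 when the parental HGC-27 cells were omitted, 694 and 701 without the GFP controls of AGS and HGC-27, and 703 and 657 without their MIST1 arrays. When a parental array is left out, its line no longer enters the change.

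The count of 1400 genes differing between lines became 110 when the floor was set at the median, 653 when nothing was filtered, 667 with scaling to the spikes and 178 without the variance trend. It was 0 with any transfected array left out. The 1.5-fold rule gave 1873 genes at 1.2-fold and 75 at 2-fold, in place of 381, and 429 to 1675 with 1 array left out (1675 and 1449 with the parental AGS or HGC-27 cells omitted). Scaling to the spikes gave 88 higher and 423 lower. Of 139 named genes, 2 changed sign: PARP9 was at 0.23 with the floor at the median, where its other probe set was taken, and B2M at -0.034 with scaling to the spikes. The other causes were not tested.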
